A study of Sus scrofa with 6 samples.

Results

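IRF9, ISG12(A), DDX60, DDX58 and IFIT3 are genes of the interferon response, and their levels were compared in primary porcine endometrial epithelial cells with and without seminal exosomes. The members were the rows of the deposited table with exactly these names, which gave 5 of 10915 genes with values. The control group (3 libraries) held cells without exosomes, per the series' design text. The exosome group (3 libraries) held cells given 10 µg of exosomes per well for 48 h, precipitated from the sperm-rich fraction of boar seminal fluid. Both groups were primary cultures at passage 3, grown in serum from uteri collected at a slaughterhouse. The labels do not say which pig a library came from or whether pigs were pooled, nor what carrier the controls received. Each p-value is thus set against library-to-library spread that may be only technical.

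Interferons are secreted proteins that warn cells of infection. Type I interferons bind a receptor made of IFNAR1 and IFNAR2, whose kinases JAK1 and TYK2 phosphorylate STAT proteins, among them STAT2. These join IRF9 to form the complex ISGF3, which switches on interferon stimulated genes. RNA sensors such as RIG-I, the product of DDX58, act upstream of interferon through the adaptor MAVS and are themselves induced by it. In the pig, the implanting conceptus secretes interferons, and the endometrium is a known site of interferon stimulated gene expression during early pregnancy.

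The genes were placed on the Sscrofa11.1 assembly by their symbols in the RefSeq gene table, where all 5 are protein-coding. IRF9 lies on chromosome 7 from 75133800 to 75139641, and ISG12(A) on the same chromosome from 115356619 to 115361537. DDX58 lies on chromosome 10 from 33891720 to 33976151 and DDX60 on chromosome 14 from 21077491 to 21163563. IFIT3 lies on chromosome 14 from 101214730 to 101225169, between IFIT2 and IFIT1. The identifier of the row named IFIT3 (ENSSSCG00000010452) is listed under IFIT1 in the reference gene table, so that row may report either of these related neighbours. The identifier of DDX58 (ENSSSCG00000030408) is listed there under RIGI, the current name of the same gene. The identifiers of IRF9 (ENSSSCG00000002002) and DDX60 (ENSSSCG00000009720) carried the same symbols there, and that of ISG12(A) (ENSSSCG00000002471) was not found.

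Levels are given as FPKM, read fragments divided by transcript length and library total, a unit that allows genes to be compared with each other. The sum of FPKM was from 690258 to 732922 in the 6 libraries. The number of reads is not given, but low values showed the relative depth, which was from 91.97% to 100% of control replicate 1 in the control libraries and from 87.56% to 94.3% in the exosome libraries. Epithelial identity was checked with 5 of 6 markers, whose summed level was from 8731 to 9002 FPKM in the controls and from 7724 to 8505 with exosomes. KRT8 stood at 3037 and 2800 FPKM, lower without overlap (log2 change -0.12), as were 10.4% of all genes tested. EPCAM, listed as TACSTD1, stood at 345.8 and 357.9 FPKM and overlapped. CLDN4, a tight junction protein, was from 1006 to 1068 FPKM in the controls and from 688.5 to 921.6 with exosomes, without overlap (log2 change -0.35, limma adjusted p = 0.28). Fibroblast markers (4 of 8) summed to 562.5 to 678.0 FPKM in the controls and to 505.0 to 596.8 with exosomes, mostly VIM. Among them COL1A1 was uneven, from 2.48 to 30.0 FPKM in the controls and from 0.887 to 20.4 with exosomes. Leukocyte markers (3 of 15: CD14, CD68 and LAPTM5) summed to 13.1 to 15.4 and 11.6 to 13.6 FPKM, and of these LAPTM5 was lower without overlap (log2 change -0.28, limma adjusted p = 0.336). The endothelial marker KDR (1 of 5) was from 1.26 to 1.96 FPKM in the controls and from 0.968 to 1.16 with exosomes, without overlap. The other markers, with all 4 of smooth muscle, were looked up by name but not matched to a gene with values. The part of these shifts in the results that follow was not tested, and in a culture fewer cells of a type and less RNA per cell cannot be told apart.

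The control cells carried transcripts of all 5 genes, at levels spread over a wide range. Presence alone does not set them apart, since the lowest deposited value of any gene was 0.0882 FPKM. In the control libraries ISG12(A) stood at 124.5 ± 2.35 FPKM (SD, n = 3), above 91.3% of the genes tested on their mean over all 6 libraries. IRF9 followed at 13.0 ± 0.943, DDX60 at 4.65 ± 0.112, DDX58 at 3.33 ± 0.115 and IFIT3 at 1.07 ± 0.0118 FPKM. The order was the same in the exosome libraries, and no library of a gene overlapped a library of the next gene within either group. The closest neighbours were DDX60 and DDX58, whose means stood in a ratio of 1.40 without and 1.28 with exosomes. IFIT3 was close to the lowest level tested, a mean of 1 FPKM over the 6 libraries, which all 5 genes passed.

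The comparison of exosome with control libraries asks which transcripts differ after contact with seminal exosomes. Changes are differences of log2(FPKM + 1), exosome minus control, which understate the change of low genes. They were tested with limma over 10846 genes. None of the 5 genes passed an adjusted p of 0.05, nor did any gene of the table (0 of 10846, 0%). At an unadjusted p under 0.05, 2 of the 5 were lower (IRF9 and ISG12(A)) and 0 higher, where 7.5% of all genes tested were lower (813) and 5.06% higher (549). In 3 of the 5 (IRF9, ISG12(A) and DDX60) every exosome library lay below every control library, which held for 10.4% of all genes tested, and in 0 of the 5 every exosome library lay above every control (8.29% of all genes tested).

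**Figure D1:**
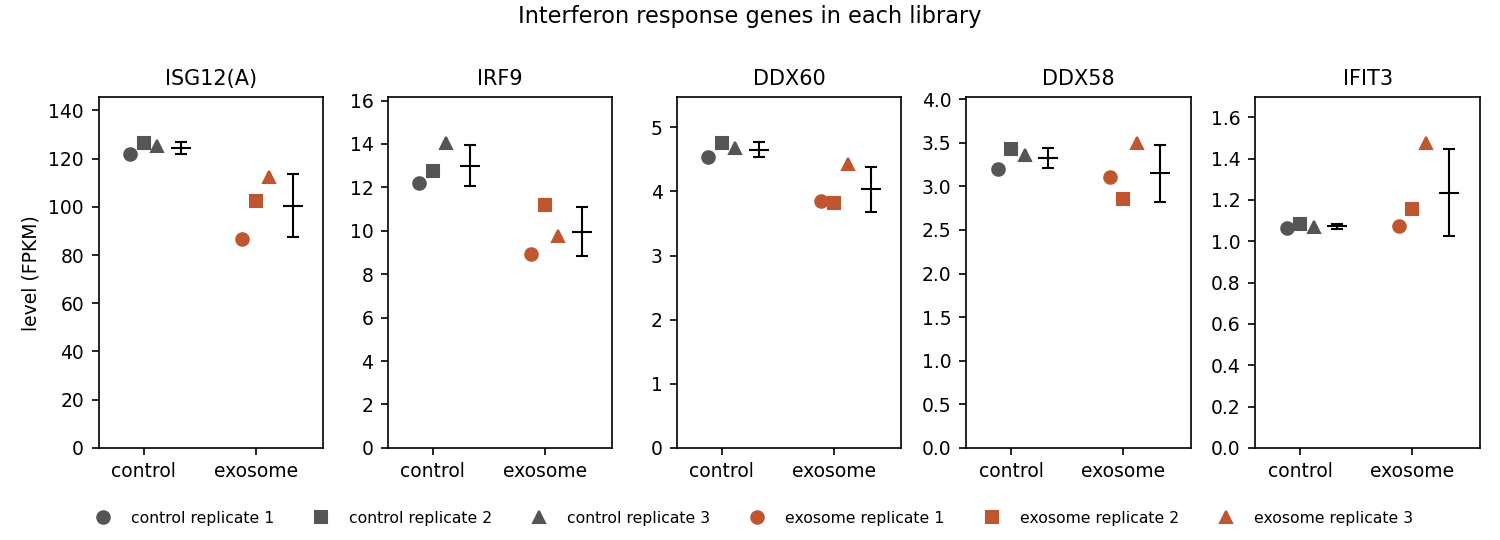
Level in FPKM (y axis, from 0, with its own scale per gene) of 5 interferon response genes in each control (grey) and exosome (orange) library, with marker shape giving the replicate number and the black bar the mean ± SD of 3 libraries. The exosome libraries of ISG12(A), IRF9 and DDX60 lie below all control libraries, and those of DDX58 and IFIT3 overlap them.

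IRF9 is the DNA-binding subunit of ISGF3. Its level was 12.2, 12.7 and 14.0 FPKM in control replicates 1, 2 and 3 and 8.94, 11.2 and 9.74 FPKM in exosome replicates 1, 2 and 3. All exosome libraries were below all controls, with exosome replicate 2 closest to them. The mean was 13.0 ± 0.943 FPKM without and 9.96 ± 1.14 FPKM with exosomes (SD, n = 3), and the log2 change was -0.36 ± 0.09 (SE; limma adjusted p = 0.25). The 95% interval of the change, not adjusted for the number of genes, ran from -0.57 to -0.14. The exact permutation test gave p = 0.1, two-sided, the smallest that 3 libraries against 3 allow. The gene was called at an adjusted p of 0.0443 (limma) without exosome replicate 2, where the log2 change was -0.44 and 297 genes of the table passed. Its adjusted p was as high as 0.811 among the alternatives.

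STAT2, a partner of IRF9 in ISGF3, was compared in the same libraries. It was at 9.85, 9.65 and 9.87 FPKM in the controls and 9.76, 9.23 and 8.42 in the exosome libraries, with exosome replicate 3 the lowest (log2 change -0.09, limma adjusted p = 0.612). The difference between these partners was tested directly within each library, a comparison added after the values were seen. The log2 ratio of IRF9 to STAT2 was 0.37 ± 0.09 without and 0.11 ± 0.20 with exosomes (SD, n = 3), at an exact two-sided permutation p of 0.1, the smallest possible. The ratio did not overlap between the groups, which is the same result as this smallest p, and IRF9 alone did not overlap either.

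ISG12(A) is the pig relative of IFI27, a small hydrophobic protein induced by type I interferon. It stood at 121.9, 126.4 and 125.1 FPKM in the controls and at 86.5, 102.6 and 112.5 FPKM in exosome replicates 1, 2 and 3. The controls lay close together, while the exosome libraries were all lower and spread widely, with replicate 1 the lowest. The mean was 124.5 ± 2.35 FPKM without and 100.5 ± 13.2 FPKM with exosomes (SD, n = 3), and the log2 change was -0.31 ± 0.09 (SE; limma adjusted p = 0.284). The 95% interval ran from -0.52 to -0.11, and the two-sided exact permutation p was 0.1. The change was -0.21 without exosome replicate 1 and -0.40 without exosome replicate 3.

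IFI27L2, a related gene of the ISG12 family, had the pattern nearest to that of ISG12(A) among all genes tested. It stood at 168.3, 171.5 and 169.7 FPKM in the controls and at 120.6, 139.6 and 162.7 in exosome replicates 1, 2 and 3. As for ISG12(A), replicate 1 was the lowest of the exosome libraries and replicate 3 the nearest to the controls. Its log2 change was -0.28 (limma adjusted p = 0.334). Likeness was the root mean square difference of the centred log2(FPKM + 1) values over the 6 libraries, which was 0.0323 for this pair, against 0.192 for the spread of ISG12(A) itself. The next in likeness were TTC38 (0.0357) and SCNN1A (0.0394), a subunit of the epithelial sodium channel. Reads of ISG12(A) and IFI27L2 may be split between them by the authors' counting, so the share of either gene is uncertain.

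**Figure D2:**
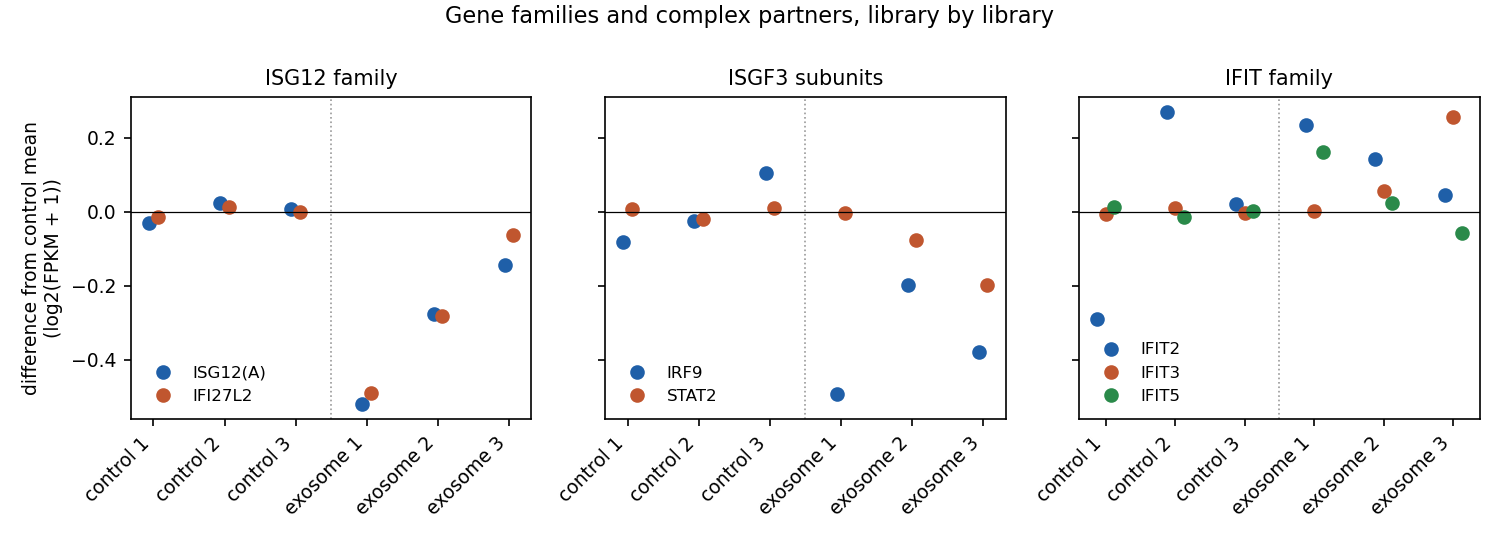
Difference of each library from the control mean on the log2(FPKM + 1) scale (y axis) for the ISG12 family, IRF9 with its ISGF3 partner STAT2, and the IFIT family, with controls left and exosome libraries right of the dotted line. ISG12(A) and IFI27L2 lie together in every library. From exosome replicate 1 to 3, IFIT2 and IFIT5 fall while IFIT3 rises. IRF9 lies below STAT2 in all 3 exosome libraries and also in control replicates 1 and 2.

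DDX60 is a helicase that is induced by interferon and has been described as promoting RIG-I signalling. It was at 4.53, 4.75 and 4.67 FPKM in the controls and at 3.85, 3.81 and 4.43 FPKM in exosome replicates 1, 2 and 3. Exosome replicate 3 lay just below the lowest control, and the other exosome libraries clearly below it. The mean was 4.65 ± 0.112 and 4.03 ± 0.348 FPKM (SD, n = 3), and the log2 change was -0.17 ± 0.08 (SE; limma adjusted p = 0.426). The 95% interval ran from -0.36 to 0.02, and the two-sided exact permutation p was 0.1.

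DDX58 encodes RIG-I, the sensor of viral RNA with a free triphosphate end. It was at 3.20, 3.42 and 3.36 FPKM in the controls and at 3.11, 2.85 and 3.50 FPKM in exosome replicates 1, 2 and 3. Exosome replicate 2 was the lowest library and exosome replicate 3 the highest, so the groups overlapped. The mean was 3.33 ± 0.115 and 3.15 ± 0.326 FPKM (SD, n = 3), a log2 change of -0.06 with a 95% interval from -0.27 to 0.14 (limma adjusted p = 0.802). The two-sided exact permutation p was 0.5. The direction was not stable, since the log2 change was 0.0066 without replicate 2 of both groups.

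The row named IFIT3, of a family that binds foreign RNA and blocks its translation, was at 1.06, 1.09 and 1.07 FPKM in the controls and at 1.07, 1.16 and 1.47 FPKM in exosome replicates 1, 2 and 3. Only exosome replicate 3 stood out, and exosome replicate 1 lay within the controls. The mean was 1.07 ± 0.0118 and 1.23 ± 0.212 FPKM (SD, n = 3), a log2 change of 0.11 with a 95% interval from -0.14 to 0.35 (limma adjusted p = 0.713; exact permutation p = 0.2, two-sided). Without exosome replicate 3 the log2 change was 0.03, and with a pseudocount of 0.1 it was 0.18. The 6 values matched whole numbers of reads to within 0.0211 reads, the smallest such set being 26, 26 and 24 in the controls and 23, 25 and 34 in the exosome libraries. For these smallest numbers, exact Poisson 95% intervals, which cover counting error only, ran from 14.6 to 34.5 for the lowest of these and from 23.6 to 47.5 for the highest. Multiples of these numbers would match as well, so they are lower bounds, and with more reads the intervals would be relatively narrower.

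The relatives IFIT2 and IFIT5 both fell from exosome replicate 1 to 3, where IFIT3 rose, and they shared no order among the controls. IFIT2 was at 5.36, 8.37 and 6.88 FPKM in the controls and 8.15, 7.57 and 7.02 in the exosome libraries, with the largest spread among the controls. IFIT5 was at 49.7, 48.8 and 49.4 FPKM in the controls and 55.2, 50.1 and 47.3 in the exosome libraries. Both overlapped between the groups, with log2 changes of 0.14 and 0.04 (limma adjusted p = 0.7 and 0.817).

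All 5 genes were more even among the controls than among the exosome libraries. The SD in FPKM was higher in the exosome than in the control libraries for 5 of 5, which held for 66.4% of all genes tested. The coefficient of variation was 1.89% without and 13.1% with exosomes for ISG12(A), and 1.11% and 17.1% for IFIT3. For DDX60 it was 2.40% and 8.62%, for DDX58 3.46% and 10.3%, and for IRF9 7.26% and 11.4%. Over all genes tested the median was 5.30% and 7.67%. The smallest read numbers of IFIT3 were 26, 26 and 24 in the controls and 23, 25 and 34 with exosomes. These are lower bounds. If they were the actual numbers, counting error alone would exceed the control spread of IFIT3. The part of counting error in these values was not tested. The 5 genes did not share an order of exosome libraries: replicate 1 was lowest for IRF9, ISG12(A) and IFIT3, and replicate 2 for DDX60 and DDX58.

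The other genes of the pathway were taken from 6 lists by role, in which 90 genes besides the 5 were tested. None passed an adjusted p of 0.05 in limma. At an unadjusted p under 0.05, 7 were lower (7.78%) and 1 higher (1.11%), against 7.5% and 5.06% of all genes tested. Of the 90, 46 were lower and 44 higher, and their median log2 change was -0.00306, beside -0.00229 over all genes tested. Every exosome library lay below every control in 8 of the 90 and above every control in 3. Over all genes tested these shares were 10.4% and 8.29%. The count of 7 lower genes was 2 without control replicate 2 or without replicate 2 of both groups, and 4 without control replicate 3. The count of 1 higher gene was 9 without exosome replicate 2, and 6 when replicate 2 of both groups was left out. It was 2 without control replicate 1 or without exosome replicate 3.

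**Figure D3:**
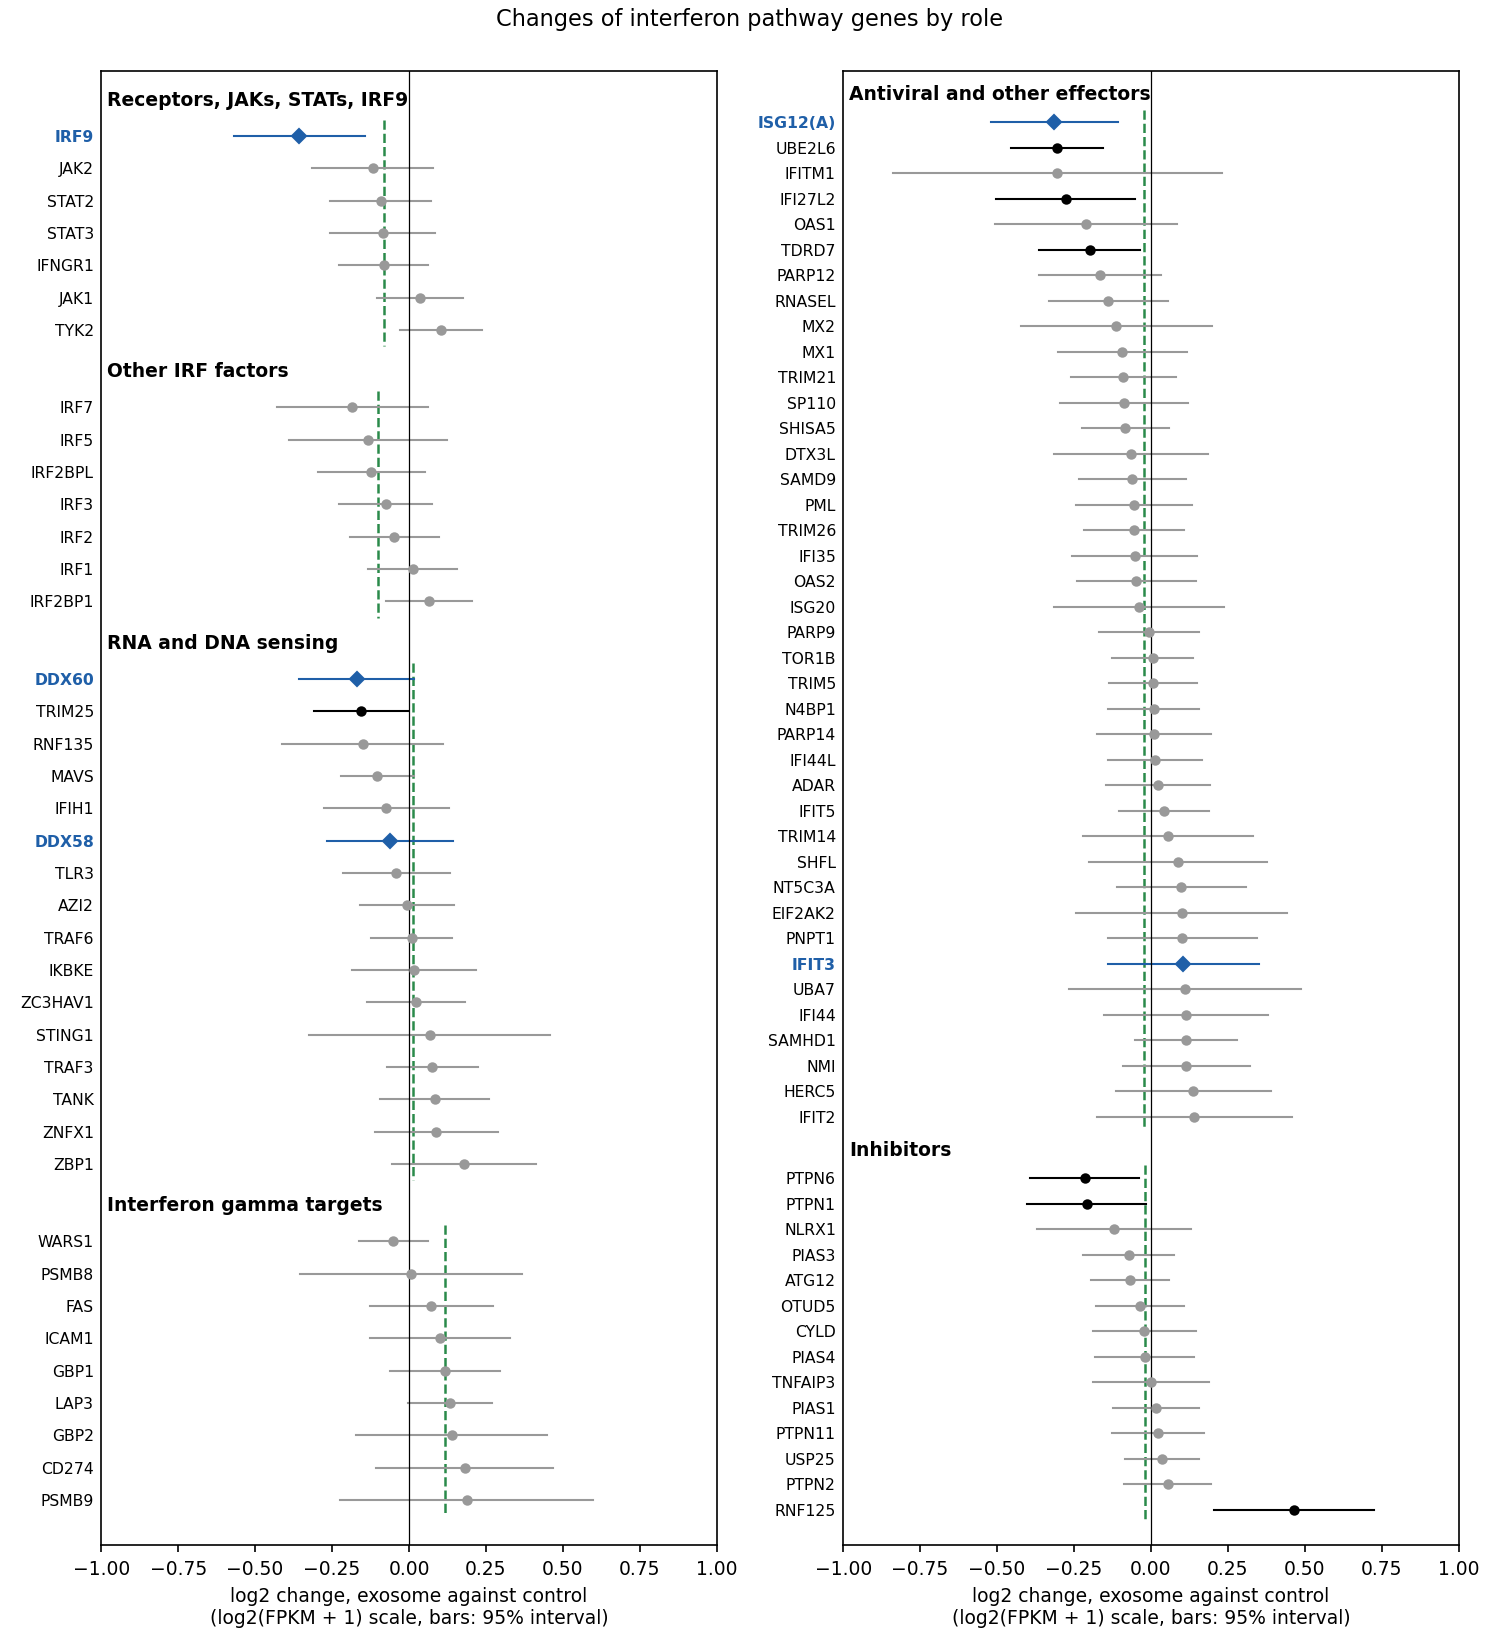
Log2 change of interferon pathway genes (x axis, exosome minus control, log2(FPKM + 1) scale) with its 95% interval, grouped by role, where blue diamonds are the 5 genes of interest, black points other genes with an unadjusted limma p under 0.05, grey points the rest, and green dashed lines the list medians without the 5, with 88 of the 90 other genes drawn and all 90 in the medians. IRF9 has the most negative change plotted (-0.36) and RNF125 the most positive (0.46), and none passed the adjusted threshold.

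Among receptors, kinases and STAT factors, 7 genes besides IRF9 were tested, 4 lower and 3 higher. IFNGR1 was the only receptor gene among them, and the type I receptor genes IFNAR1 and IFNAR2 were not tested in this list. The 7 genes had a median log2 change of -0.08, with none at an unadjusted p under 0.05. The median was -0.05 without exosome replicate 1, and -0.02 without exosome replicate 3 or without replicate 1 or replicate 3 of both groups. TYK2, a kinase of the type I receptor, was from 26.3 to 27.7 FPKM in the controls and from 27.9 to 30.9 with exosomes, without overlap (log2 change 0.10, limma adjusted p = 0.501). JAK2 and IFNGR1, of the interferon gamma receptor, had log2 changes of -0.12 and -0.08, and STAT3 of -0.09.

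The list of other interferon regulatory factors also held the IRF2-binding proteins IRF2BPL and IRF2BP1, which are not such factors themselves. Of its 8 genes, 6 were lower and 2 higher, with a median of -0.10 (-0.06 without exosome replicate 1). IRF7, which amplifies interferon production, was at 14.7 ± 0.802 and 12.9 ± 2.06 FPKM (log2 change -0.19). IRF3, its constitutive relative, had a log2 change of -0.08, and IRF2BPL of -0.12. IRF2, a repressor of interferon stimulated genes, was at 16.7 ± 1.09 and 16.1 ± 0.135 FPKM, with an interval of its log2 change from -0.19 to 0.10.

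Among 14 other genes of RNA and DNA sensing, 6 were lower and 8 higher, with a median of 0.01, which was -0.01 without control replicate 1, without control replicate 3 or without replicate 1 of both groups, and 0.0036 without exosome replicate 1. TRIM25, the ubiquitin ligase that activates RIG-I, was at 84.8, 79.6 and 80.3 FPKM in the controls and 66.8, 75.4 and 77.6 in the exosome libraries (log2 change -0.16, limma adjusted p = 0.386), the 1 gene of this list at an unadjusted p under 0.05. That was 7.14% of the list, beside 7.5% of all genes tested that were lower at this p. MAVS, the mitochondrial adaptor of RIG-I, was at 33.2 ± 0.929 and 30.9 ± 0.866 FPKM, also without overlap (log2 change -0.10). ZBP1, a sensor of left-handed nucleic acids, was at 1.55 ± 0.178 and 1.88 ± 0.176 FPKM, close to the lowest level tested, and was higher without overlap (log2 change 0.18). IFIH1, which encodes the related sensor MDA5, was named after its values were seen and had a log2 change of -0.07.

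The list of antiviral and other effectors had 38 genes besides ISG12(A) and IFIT3, 20 lower and 18 higher, with a median of -0.02. With replicate 2 left out of the exosome group it was 0.02, and with that number left out of both groups 0.03. With replicate 1 left out likewise it was -0.04 and -0.05, and without control replicate 2 it was -0.0021. At an unadjusted p under 0.05, 3 were lower (7.89%) and 0 higher, against 7.5% and 5.06% of all genes tested. UBE2L6, the conjugating enzyme for the ubiquitin-like protein ISG15, was at 42.3, 44.6 and 43.4 FPKM in the controls and 34.1, 38.1 and 32.8 in the exosome libraries, with no overlap. Its log2 change was -0.31 (limma adjusted p = 0.219), and it passed without exosome replicate 2 (adjusted p = 0.0226, log2 change -0.37). TDRD7, a tudor domain protein, was at 6.66 ± 0.379 and 5.67 ± 0.105 FPKM (log2 change -0.20, limma adjusted p = 0.336), and IFI27L2, described above, was the third. MX1, a dynamin-like antiviral GTPase, was at 11.8, 12.1 and 12.3 FPKM in the controls and from 9.98 to 12.9 with exosomes, which overlapped (log2 change -0.09). SHISA5, next to IFI27L2 the most abundant of the 38, had a log2 change of -0.08.

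Of 9 genes best known as interferon gamma targets, 8 were higher and 1 lower, where 5338 of all 10846 genes tested were higher, and none was at an unadjusted p under 0.05. Their median log2 change was 0.12, and leaving out control replicate 3 gave 0.06, while leaving out exosome replicate 2 gave 0.08. LAP3, an aminopeptidase, stood at 94.5 ± 4.74 FPKM without and 103.7 ± 5.44 with exosomes (log2 change 0.13, limma adjusted p = 0.404). GBP1, a guanylate-binding protein, and CD274, the checkpoint ligand listed as PDL1, had log2 changes of 0.12 and 0.18. WARS1, a tryptophan tRNA synthetase, was the exception at -0.05.

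Of 14 inhibitors of the pathway, 9 were lower and 5 higher, with a median of -0.02. Leaving out control replicate 3 gave -0.05 and leaving out exosome replicate 2 gave -0.04, while it was 0.0025 without control replicate 2 and 0.00056 if exosome replicate 3 was dropped. RNF125, a ubiquitin ligase that marks RIG-I for degradation, was at 5.20, 5.01 and 5.91 FPKM in the controls and 9.30, 7.18 and 7.02 in the exosome libraries. All exosome libraries were above the controls, with a log2 change of 0.46 and a 95% interval from 0.20 to 0.72 (limma adjusted p = 0.234). The phosphatases PTPN6 and PTPN1, which act on JAK kinases, had log2 changes of -0.21 each (limma adjusted p = 0.336 and 0.373), and with RNF125 they were the 3 genes of this list at an unadjusted p under 0.05. That was 2 lower (14.3%) and 1 higher (7.14%), against 7.5% and 5.06% of all genes tested. The count of lower genes was 0 without control replicate 2 or without exosome replicate 1. PTPN11 and TNFAIP3 were at 101.5 ± 6.41 and 38.7 ± 2.15 FPKM without exosomes and at 103.1 ± 5.61 and 38.7 ± 3.82 with them.

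The patterns of the remaining 4 genes of interest were nearest to genes outside the pathway lists. IRF9 was nearest to a gene without a symbol (root mean square difference 0.0468), ERBB3 (0.054), a receptor tyrosine kinase, and CLU (0.0543), a secreted chaperone of uterine fluid. DDX60 was nearest to GM2A (0.0231), a lysosomal lipid-binding protein, CCDC64B (0.0247) and a gene without a symbol (0.0275). DDX58 was nearest to a gene without a symbol (0.0174), COG7 (0.0197) and C8orf37 (0.023). IFIT3 was nearest to USH1C (0.0149), ERO1L (0.0268) and MRPS26 (0.0298). Among the 5 genes themselves, the closest pair was DDX60 and DDX58 at 0.0589 and the farthest IRF9 and IFIT3 at 0.262. The spread of the gene itself was 0.103 for DDX60, 0.0755 for DDX58, 0.205 for IRF9 and 0.0936 for IFIT3. Genes of small spread lie closer by this measure, so the order of pairs partly follows the spreads. These distances describe 6 libraries and carry no test.

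**Figure D4:**
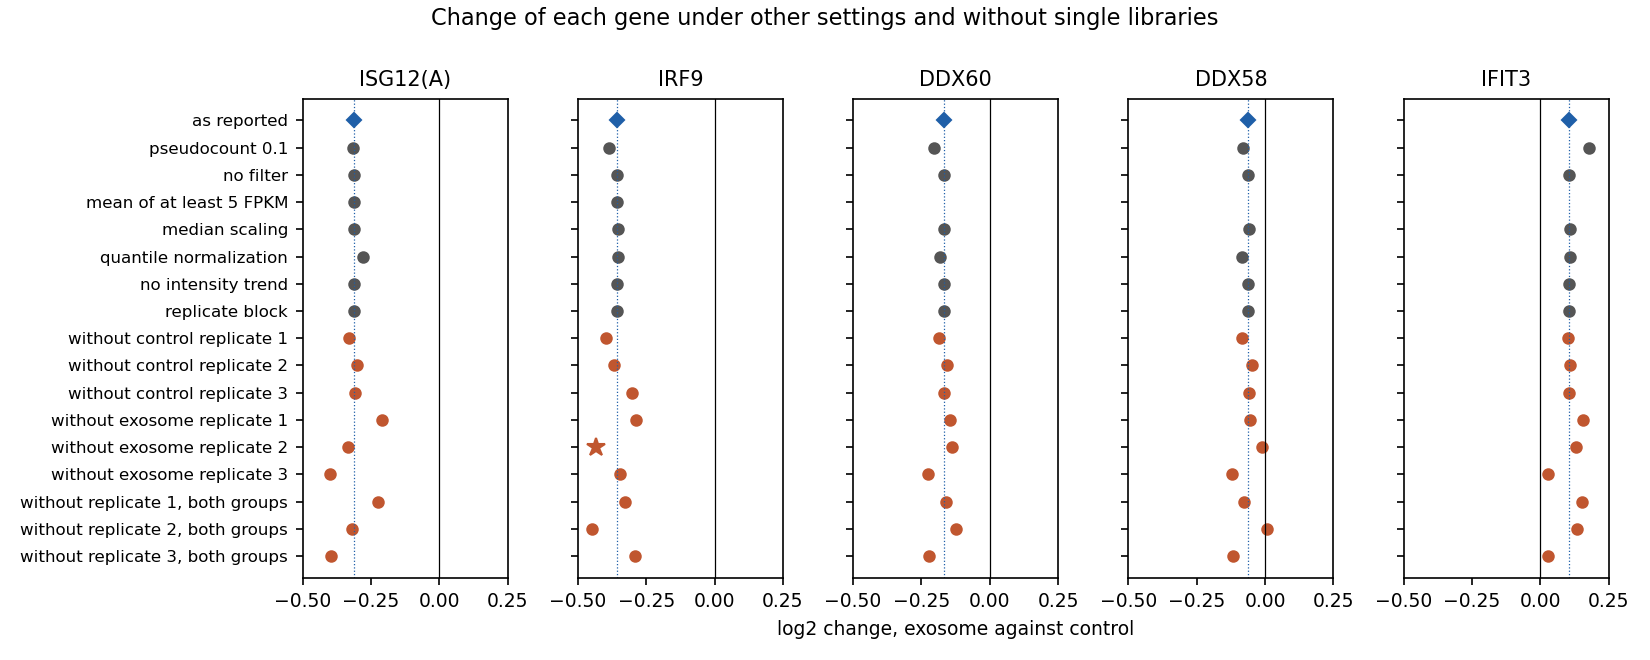
Log2 change (x axis, exosome minus control) of each of the 5 genes as reported (blue diamond and dotted line), under other settings (grey) and without single libraries or replicate numbers (orange), with a star where the adjusted limma p was under 0.05 and no point where the gene was not tested. ISG12(A), IRF9 and DDX60 lie below 0 and IFIT3 above 0 in every setting shown, DDX58 reaches 0.0066 without replicate 2 of both groups, and the star is IRF9 without exosome replicate 2.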

How the data were processed

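RNA was sequenced from 6 libraries, 3 per group, grouped by their titles. The kit, per the labels' protocols, selects mRNA and keeps its strand. The authors demultiplexed with bcl2fastq 1.8.4 and processed reads with TopHat and Cufflinks on Sscrofa11.1, per the submitters' processing notes. Annotation, filters and other versions were not given in the sources used here. Values deposited by the authors were read as FPKM, from the tool named and the values. The table had 10916 rows, 1 without values, and no value of 0 (the lowest was 0.0882), so a gene silent in any library cannot be seen.

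Genes whose mean reached 1 FPKM were tested, as log2(FPKM + 1), with limma 3.58.1 in R 4.3.3 (intensity trend, two-sided, Benjamini-Hochberg over all genes tested, threshold 0.05). Single comparisons used exact permutation tests (scipy 1.17.1). Figures used Python 3.11.15 and matplotlib 3.10.9. The scripts were tested on simulated data.

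The genes of interest, lists, tests and alternatives were chosen with earlier results of these data known. Lists named 150 symbols, of which 95 genes were matched (12 through the reference symbol of the identifier) and all 95 tested; others were not analysed here. Named genes were the 3 of each list with the smallest p, the 2 with the highest mean, a few core genes, and the 3 nearest in pattern to each gene of interest. The 2 list genes left out of the text and plots are counted in every total; their own values are not reported here. IFIT2, IFIT5 and IFIH1 were added after their values were seen.

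Relative depth came from 1403 genes with a mean under 3 FPKM, in which pairs of libraries shared ratios, as equal read numbers give. Whole-read numbers within 0.05 reads were found for 15 of 69 genes under 1 FPKM, so absolute depth is unknown and no count model was used. The alternatives tried changed the pseudocount, the filter, the scaling or the variance model, added the replicate block, or left libraries out. No sequences are shown.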

Additional observations from a re-analysis of the deposited data

How the results depend on the processing

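Leaving out single libraries, or 1 replicate number of both groups, moved the number of genes passing limma's adjusted p of 0.05 between 0 and 297 (58 without replicate 2 of both groups), where 0 passed with all libraries and under the other settings. It moved the pathway genes at an unadjusted p under 0.05 between 2 and 10 lower and between 1 and 9 higher; with quantile normalization 2 were higher. With libraries left out, the log2 change stayed between -0.45 and -0.29 for IRF9 and between -0.40 and -0.21 for ISG12(A). It stayed between -0.23 and -0.13 for DDX60 and between 0.03 and 0.16 for IFIT3. That of DDX58 lay between -0.12 and 0.0066, reversed without replicate 2 of both groups. With a pseudocount of 0.1 the log2 change of IFIT3 was 0.18. Of the settings run, IRF9 passed only without exosome replicate 2. The cause of these moves was not tested. DDX60, DDX58 and IFIT3 were not tested at a mean of at least 5 FPKM. With the replicate number as a block, 0 genes passed, the log2 changes were -0.36, -0.31, -0.17, -0.06 and 0.11 for IRF9, ISG12(A), DDX60, DDX58 and IFIT3, and 6 pathway genes were lower and 1 higher. The deviations of same-numbered libraries had correlations of 0.161, 0.144 and -0.07 over genes. Those of differently numbered libraries ran from -0.271 to 0.169. The labels state no pairing, so the numbers were not taken as pairs. These correlations cannot decide the question, since their ranges overlap. Absolute depth is unknown: the read numbers of IFIT3 are known only as multiples of a smallest set, and none was found for the other genes of interest.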
